A study of Mus musculus with 22 samples.

Results

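The 5 members of the miR-23, miR-27 and miR-24 clusters, mmu-miR-23a, mmu-miR-27a, mmu-miR-23b, mmu-miR-27b and mmu-miR-24, were chosen by name, without their other strands, from the 566 mouse miRNAs on a NanoString nCounter panel, which counts fluorescent barcodes on miRNA probes without amplification. Counts were available for 22 mouse samples in 5 groups. Tissue groups were 5 uninduced control fallopian tubes (CT), 5 doxycycline-induced fallopian tubes (FT) and 5 metastatic tumors (M). Plasma groups were 3 samples of control mice (CS) and 4 samples of induced mice (TS). The titles call TS tumor plasma, and the study describes these mice as bearing tumors. Tissue labels of TS also give plasma, and the source names give serum. No age is given in the sources used here. The study asked which miRNAs change in the tube and in tumors once Brca1 or Brca2, among other genes, is inactivated.

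The mice carried conditional alleles recombined by a doxycycline-inducible Cre under Pax8, a gene expressed in secretory cells of the tube, and the controls carried such alleles without induction. The Brca allele was Brca1 fl/fl in CT1 and CT3, Brca1 fl/+ in CT2, Brca2 fl/fl in CT4 and Brca2 fl/+ in CT5. In FT it was Brca2 -/+ in FT1, FT3 and FT5, Brca1 -/- in FT2 and Brca2 -/- in FT4. In M it was Brca2 -/- in M1 and M3, Brca1 -/+ in M2 and M6 and Brca2 -/+ in M4, and M6 was the one ovarian tumor while the others were peritoneal. CS2 to CS4 were plasma of the mice of CT2 to CT4, and TS1 to TS4 plasma of the mice of FT2 to FT5. A pair of mice gave both a tube and a tumor, which the sources do not name, so the tissue samples are not all from different mice. The groups mix genotypes, and no genotype was compared.

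The 5 miRNAs are processed from a pair of paralogous clusters. Each cluster is transcribed as one primary RNA that is cut into a miR-23, a miR-27 and a miR-24 hairpin, so that members of one cluster start from the same transcript, while the amount of each mature strand also depends on its processing and turnover. The Mir23a cluster is best known from haematopoietic and muscle cells and the Mir23b cluster from endothelium, epithelium and other solid tissues, and both are studied in angiogenesis, lipid metabolism and tumors. A miRNA pairs with target mRNAs mainly through its seed, the bases 2 to 8 from its 5′ end.

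In RefSeq annotation of GRCm38.p6, the Mir23a cluster lies on the plus strand at chr8:84208518-84208921, a span of 404 bases that overlaps no protein-coding gene in that annotation. The Mir23b cluster lies on the plus strand at chr13:63300484-63301275, a span of 792 bases inside Aopep, an aminopeptidase gene at chr13:62964893-63326096. The gene table used here gives no exons. Mature sequences matched for 4 of the 5 members, and they are shown because seed and near identity decide what a probe of one cluster can tell from the other. Capitals mark the seed.
mmu-miR-23a-3p: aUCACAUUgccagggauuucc
mmu-miR-27a-3p: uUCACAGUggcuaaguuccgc
mmu-miR-27b-3p: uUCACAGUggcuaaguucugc
mmu-miR-24-3p: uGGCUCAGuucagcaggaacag
The seeds of miR-23a and miR-27a differ, and those of miR-27a and miR-27b are the same. Over their 21 bases miR-27a-3p and miR-27b-3p differ by 1 substitution, C19U, counted from 1 at the 5′ end. The mature miR-24-3p is identical from Mir24-2 on chromosome 8 and Mir24-1 on chromosome 13, so the mmu-miR-24 probe counts the product of both clusters and cannot assign it to either. The miR-23 hairpins are shown in full because mmu-miR-23a and mmu-miR-23b had the highest Pearson's r of any pair of members over the 15 tissue samples. Capitals mark the longest run that both share, 20 bases in hairpins of 75 and 74 bases.
Mir23a: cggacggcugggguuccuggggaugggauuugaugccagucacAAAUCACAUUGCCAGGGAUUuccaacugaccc
Mir23b: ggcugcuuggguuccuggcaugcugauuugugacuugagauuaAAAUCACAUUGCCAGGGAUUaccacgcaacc
The shared run starts before the seed of miR-23a and reaches to near its 3′ end. How far each probe also counts its paralogue was not tested.

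The summed miRNA count of a tissue sample, loaded at 100 ng of RNA, was between 70164 and 598321, and that of a plasma sample, loaded at 10 ng, between 18350 and 269005. Levels are given as normalized counts, the count divided by the geometric mean of the sample's 100 (tissue) or 30 (plasma) highest miRNAs and multiplied by the mean of that quantity over the tissue or the plasma samples, so that levels in tissue and in plasma are on separate scales. A miRNA was taken as above background where its count exceeded the mean plus 2 SD of the sample's 8 negative hybridization controls, a level between 18.3 and 67.7 counts. Markers of tube tissue were checked. Epithelial markers (5 miRNAs of the miR-200 family) summed to 9717 to 11624 in CT, 7852 to 44388 in FT and 205 to 36086 in M, and all 5 ciliated-cell markers were at or under background in every M. Smooth muscle markers (5 miRNAs) summed to 4963 to 13898 in CT, 3043 to 16812 in FT and 618 to 3282 in M. Leukocyte markers (5 miRNAs) summed to 657 to 1218 in CT, 768 to 1272 in FT and 830.4 to 5329 in M, and erythrocyte markers (3 miRNAs) to 119 to 710.4, 272 to 2397 and 307 to 2419. In M against CT, 1 of 5 leukocyte markers passed the test upwards, mmu-miR-223 of neutrophils (log2 fold change 3.33 ± 0.71, SE, edgeR adjusted p = 0.00417). So did 1 of 3 erythrocyte markers, mmu-miR-486 of erythroid cells (2.93 ± 0.46, SE, edgeR adjusted p = 0.000329). Downwards, 3 of 5 smooth muscle, 4 of 5 ciliated-cell and 1 of 5 epithelial markers passed. Of all 566 miRNAs 49 passed upwards and 46 downwards. A pair of endothelial markers, the arms of miR-126, summed to 4453 to 7043 in CT, 3052 to 44933 in FT and 7779 to 17091 in M. These sums were mostly mmu-miR-126-3p, and the median log2 fold change of both arms in M against CT was 0.14. The part of these cell types in the results on M was not tested. In bulk samples, fewer cells of a type and less RNA per cell cannot be told apart.

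mmu-miR-23a was above background in all 22 samples. Its normalized counts were 1807, 2599, 1872, 3341 and 1640 in CT1 to CT5. In FT1 to FT5 they were 3102, 375, 924, 638 and 2873. In M1 to M4 and M6 they were 805, 2983, 1277, 455 and 3566. The controls thus stayed within 2.04-fold of each other, while FT1 and FT5 lay inside the control range and FT2, FT3 and FT4 below all controls, and the tumors were divided in the same way, with M1, M3 and M4 below all controls and M2 and M6 inside or above their range. The spread from lowest to highest was 8.27-fold in FT and 7.84-fold in M.

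mmu-miR-27a, made from the same primary transcript as miR-23a, was above background in all 15 tissue samples. Its normalized counts were 1186, 1483, 1869, 1748 and 2144 in CT1 to CT5. In FT1 to FT5 they were 983, 1015, 2572, 832 and 906. In M1 to M4 and M6 they were 279, 813, 881, 878 and 2203. FT3 was higher and the other 4 FT lower than every control, and all tumors but M6 were lower than every control. FT3 had the highest miR-27a of all tissue samples with less miR-23a than any control, while FT1 and FT5 had high miR-23a with less miR-27a than any control.

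mmu-miR-23b was above background in 14 of the 15 tissue samples, FT2 being the exception. Its normalized counts were 605, 769, 366, 670 and 390 in CT1 to CT5. In FT1 to FT5 they were 622, 63.8, 292, 196 and 909. In M1 to M4 and M6 they were 220, 334, 135, 106 and 701. The pattern across samples was that of miR-23a, with FT1, FT5 and M6 within or above the control range and FT2, FT3, FT4, M1, M3 and M4 below it, and only M2 was low in miR-23b (334) with high miR-23a (2983). FT spread over 14.2-fold, the widest range of any member within a group of tissue samples.

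mmu-miR-27b was close to background, with counts of 19 to 155 in tissue. Its normalized counts were 69.6, 60.4, 136, 57.0 and 91.3 in CT1 to CT5, of which CT5 was not above background. In FT1 to FT5 they were 37.8, 299.7, 65.8, 101 and 45.6. In M1 to M4 and M6 they were 75.2, 48.4, 44.3, 147 and 93.6, of which M1 was not above background. FT2 and M4, which were lowest in miR-23a and miR-23b, were highest in miR-27b.

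mmu-miR-24, the shared product, had normalized counts of 159, 132, 61.4, 123 and 146 in CT1 to CT5. In FT1 to FT5 they were 125, 27.1, 109, 62.2 and 193. In M1 to M4 and M6 they were 20.3, 125, 37.3, 51.9 and 248. M6 and FT5 were higher and M1, FT2, M3 and M4 lower than every control, and these 4 low samples were not above background.

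**Figure D1:**
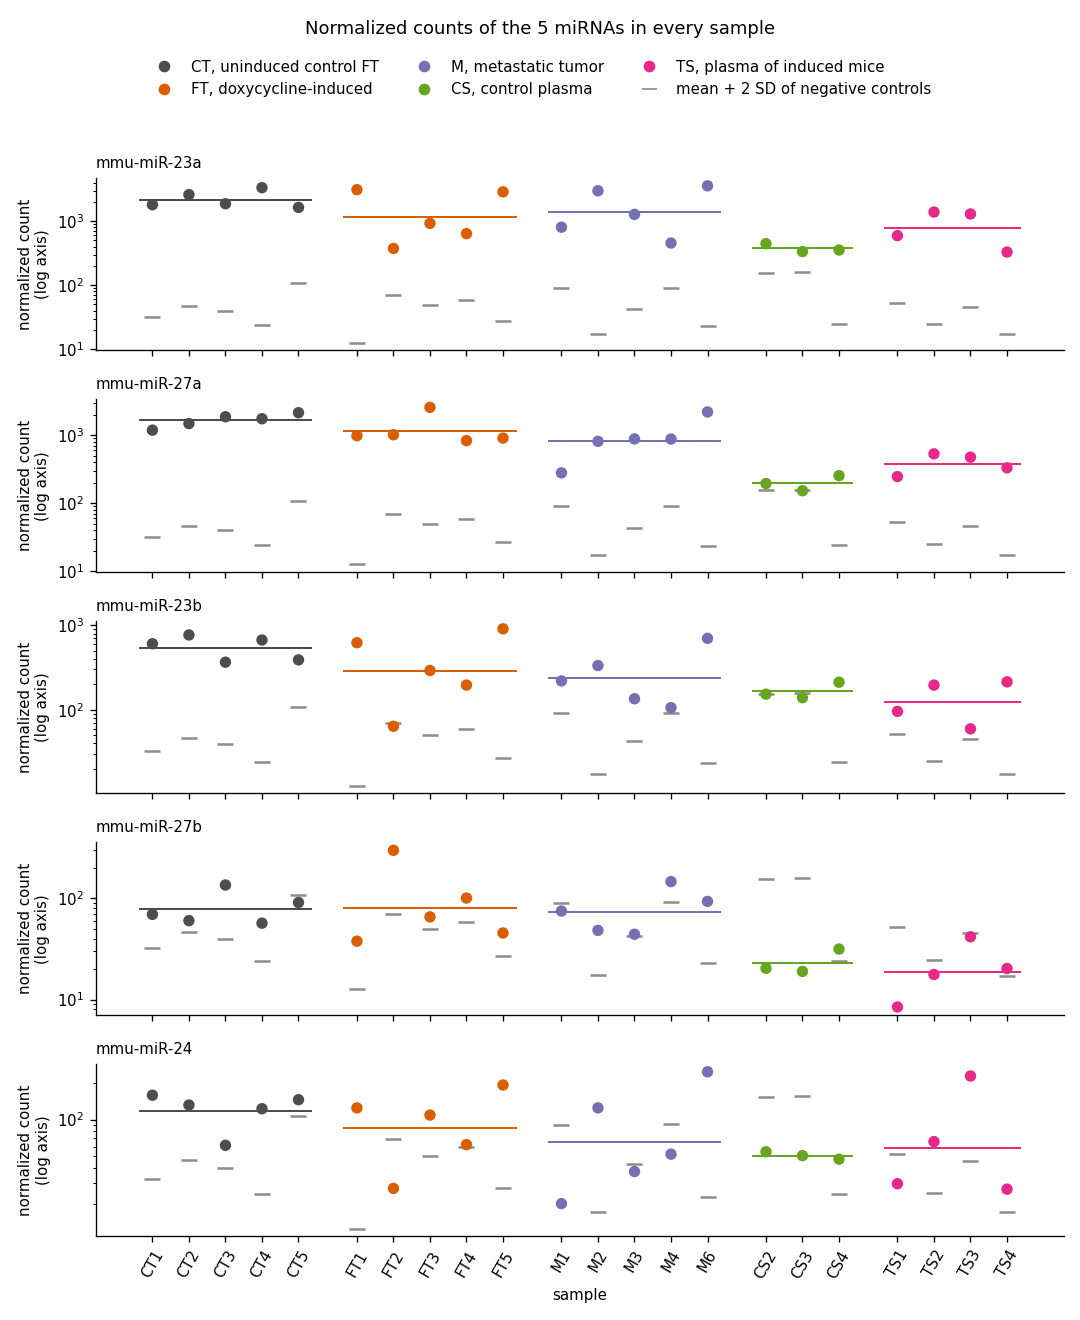
Normalized counts (log axes) of the 5 miRNAs in each of the 22 samples, one panel per miRNA, coloured by group, with the geometric mean of each group as a line and the background of each sample as a grey dash. For mmu-miR-23a the CT samples sit between 1640 and 3341 while the FT samples run from 375 to 3102, and most plasma values of mmu-miR-27b lie at or under the dashes.

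No member passed the test between groups of tissue. In FT against CT, 4 of 5 members had a log2 fold change below 0 and none passed the threshold of 0.05 on edgeR's adjusted p, where 0.177% of all 566 miRNAs did (1 miRNA, and 37 at an unadjusted p under 0.05 with no member among them). The log2 fold change of FT over CT was -0.51 ± 0.62 (SE, adjusted p = 0.779) for miR-23a, with a 95% interval from -1.80 to 0.78. It was -0.42 ± 0.54 (SE, adjusted p = 0.779) for miR-27a and -0.42 ± 0.60 (SE, adjusted p = 0.783) for miR-23b. It was 0.40 ± 0.54 (SE, adjusted p = 0.783) for miR-27b and -0.25 ± 0.50 (SE, adjusted p = 0.839) for miR-24. Without FT2 the value of miR-27b was -0.42, so that its sign rested on that sample. As folds of CT, the 95% interval was 0.287 to 1.72 for miR-23a and 0.605 to 2.87 for miR-27b.

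In M against CT all 5 members had a log2 fold change below 0, and again 0 passed, beside 16.8% of all miRNAs (95, of which 49 higher and 46 lower). At an unadjusted p under 0.05 there were 185 miRNAs and 0 members. Over all miRNAs 49.5% were below 0, and the signs depended on the scaling. With TMM miR-23a, miR-27b and miR-24 were at 0.02, 0.10 and 0.06, and with miR-425 scaling at 0.12, 0.59 and 0.14. miR-425 itself was not above background in M1 and M4, with 33 and 38 counts. The largest difference was that of miR-23b, with -0.90 ± 0.53 (SE, adjusted p = 0.240), an interval from -2.03 to 0.22 and 1 of 5 tumors above the control mean. miR-27a followed with -0.74 ± 0.51 (SE, adjusted p = 0.321), and 1 of 5 tumors again lay above the control mean. The values were -0.31 ± 0.55 for miR-23a, -0.34 ± 0.56 for miR-24 and -0.02 ± 0.41 (SE, adjusted p from 0.684 to 0.980) for miR-27b. Without M6, the ovarian tumor, miR-23b was at -1.49 with an adjusted p of 0.0542 and miR-27a at -1.24 with 0.0873, while miR-24 was at -1.05 with 0.158 and miR-23a at -0.71 with 0.358 in the same edgeR fit. Without M4 miR-23b was at -0.69. The exact permutation tests of single members, two-sided over 252 splits, gave p = 0.0635 for miR-23b and p = 0.0714 for miR-27a, where the smallest possible p was 0.00794.

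M against FT, a comparison the design holds but the study did not make, gave 0 members past the threshold beside 1.94% of all miRNAs (11), and 0 members beside 50 miRNAs at an unadjusted p under 0.05. The log2 fold changes of M over FT lay between -0.48 ± 0.79 for miR-23b and 0.20 ± 0.84 (SE, adjusted p = 0.997) for miR-23a. In the order of mean log2 level, CT was highest for miR-23a, miR-27a, miR-23b and miR-24. No neighbouring groups of tissue in that order differed by more than the larger of their SDs for any member. For miR-23b, CT and M were not neighbours and differed by 1.18, more than the larger SD of 1.09 in M. The 5 members had overlapping groups in each of these comparisons, whereas groups did not overlap for 0.883% of all miRNAs in FT against CT, 15.2% in M against CT and 1.41% in M against FT.

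**Figure D2:**
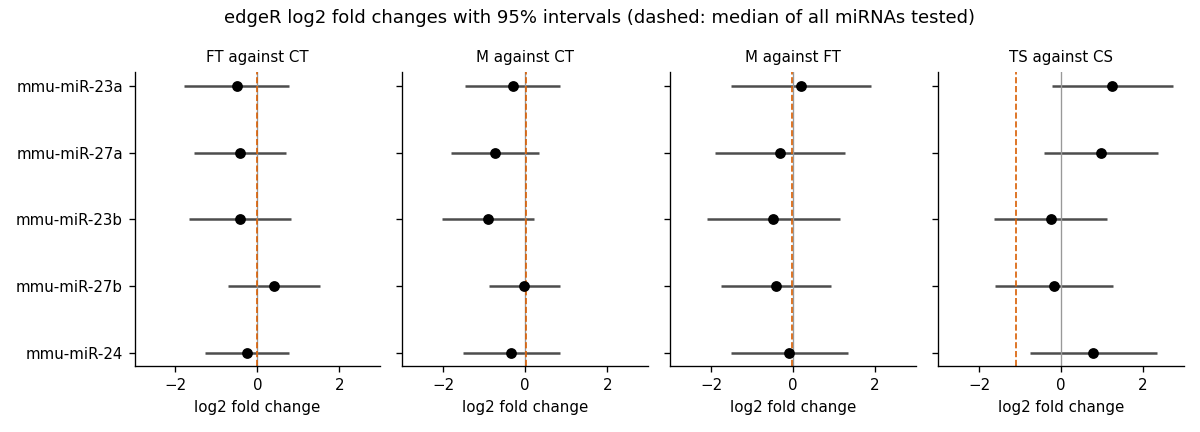
edgeR log2 fold changes of the 5 miRNAs in the 4 comparisons (points) with 95% intervals (bars), the line at 0 and the median of all 566 miRNAs (dashed). Every interval includes 0, and in TS against CS the median of all miRNAs is at -1.10 while mmu-miR-23a is at 1.25. Most of the 566 miRNAs were not above background in plasma.

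Ratios between probes within a sample need no normalization, and only their changes can be read, since probes differ in efficiency. The ratio of miR-23a to miR-23b, which come from different clusters, was 2.98, 3.38, 5.11, 4.98 and 4.21 in CT1 to CT5. It was 4.99, 5.88, 3.16, 3.25 and 3.16 in FT1 to FT5, and 3.67, 8.92, 9.45, 4.29 and 5.09 in M1 to M4 and M6. It thus moved over 3.17-fold in all tissue while miR-23a itself moved far more, and 4 of the 5 FT lay within the range of the controls, with a difference of FT from CT of -0.04 on the log2 scale (two-sided exact permutation test, p = 0.881, adjusted over 10 ratio tests p = 0.979). FT2, M2 and M3 stood above every control, and M differed from CT by 0.53 (exact permutation p = 0.143, adjusted p = 0.417) and from FT by 0.57 (exact permutation p = 0.151, adjusted p = 0.417).

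The ratio of miR-27a to miR-27b was 17.1, 24.6, 13.7, 30.7 and 23.5 in CT1 to CT5. It was 26.0, 3.39, 39.1, 8.23 and 19.9 in FT1 to FT5, and 3.70, 16.8, 19.9, 5.96 and 23.6 in M1 to M4 and M6. FT2, FT4, M1 and M4 thus lay below every control and FT3 above, a span of 11.5-fold. The mean log2 ratio differed from CT by -0.58 in FT (exact permutation p = 0.444, adjusted p = 0.741) and by -0.92 in M (exact permutation p = 0.167, adjusted p = 0.417), and M from FT by -0.34 (exact permutation p = 0.659, adjusted p = 0.941).

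The ratio of miR-23a to miR-27a ran from 0.359 in FT3 to 3.67 in M2, a 10.2-fold span, with FT2, FT3, FT4, M4 and CT5 below 1. The ratio of miR-23b to miR-27b ran from 0.213 in FT2 to 19.9 in FT5, a 93.6-fold span, although FT2 rested on 33 counts of miR-23b under background. In CT alone the spans were smaller, 1.71-fold for miR-23a to miR-23b, 2.23-fold for miR-27a to miR-27b, 2.50-fold for miR-23a to miR-27a and 4.73-fold for miR-23b to miR-27b. These spans are a description, and their difference was not tested.

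**Figure D3:**
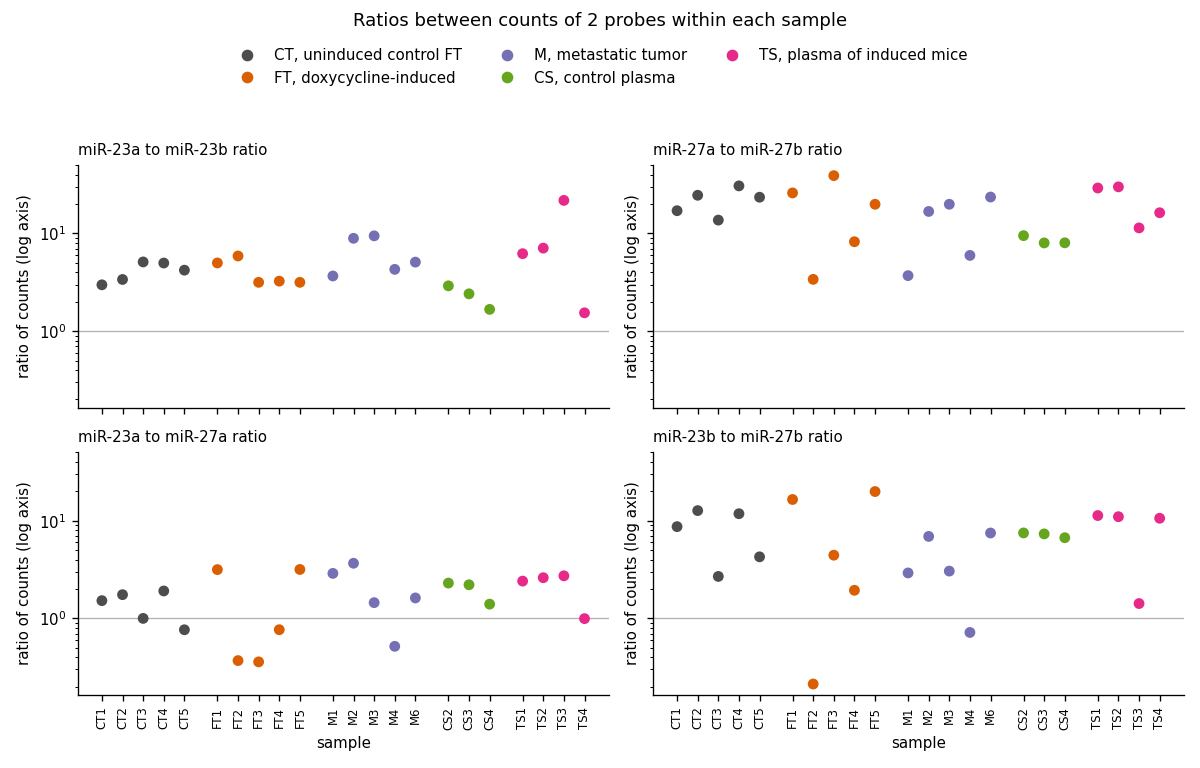
Ratios of counts between a pair of probes in each sample (log axes), coloured by group, with a line at 1. The ratio of mmu-miR-23a to mmu-miR-23b stays between 2.98 and 9.45 in tissue, and that of mmu-miR-23b to mmu-miR-27b runs from 0.213 in FT2 to 19.9 in FT5.

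Over the 15 tissue samples, log2 normalized counts of miR-23a and miR-23b rose and fell together, with Pearson's r = 0.894 (permutation p = 3.00e-05, adjusted over the 10 pairs of members p = 0.000300) and Spearman's rho = 0.839 (permutation p = 0.000120). After removal of the group means r was 0.905, and without FT2 and M4, the samples farthest from the median of miR-23a, it was 0.792. miR-24 followed miR-23b with r = 0.831 (permutation p = 0.000170, adjusted p = 0.000850) and rho = 0.843 (permutation p = 0.000180), and miR-23a with r = 0.767 (permutation p = 0.000980, adjusted p = 0.00327) and rho = 0.704 (permutation p = 0.00483). Without FT2 and M4 these were 0.800 and 0.70. For scale, the median r was -0.014 over all 9870 pairs of the 141 miRNAs whose mean count in tissue reached 50, and their 5th and 95th percentiles were -0.746 and 0.769. The r of miR-23a with miR-23b lay above that range, and that of miR-23a with miR-24 just inside it.

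The pairs of a miR-23 with the miR-27 of its own cluster had lower values of r, unlike the pairs of a miR-23 with miR-24, which both clusters make. miR-23a and miR-27a had r = 0.339 (permutation p = 0.218, adjusted p = 0.242) and rho = 0.321 (permutation p = 0.241), with 0.337 when FT2 and M4 were left out. miR-23b and miR-27b had r = -0.626 (permutation p = 0.0118, adjusted p = 0.0218) and rho = -0.468 (permutation p = 0.0808). That inverse relation rested on FT2 and M4, without which r was -0.163. The same held for miR-23a and miR-27b, with r = -0.687 (permutation p = 0.00415, adjusted p = 0.0104) and rho = -0.564 (permutation p = 0.0312), and -0.357 without these samples. miR-27a and miR-27b, which share the seed and differ by C19U alone, had r = 0.078 (permutation p = 0.776, adjusted p = 0.776) and rho = 0.129 (permutation p = 0.649). miR-27a and miR-24 had r = 0.617 (permutation p = 0.0131, adjusted p = 0.0218) and rho = 0.443 (permutation p = 0.101), and r was 0.420 without FT3 and M1. miR-27a and miR-23b had r = 0.356 (permutation p = 0.195, adjusted p = 0.242) and rho = 0.414 (permutation p = 0.126), and miR-27b and miR-24 r = -0.451 (permutation p = 0.0899, adjusted p = 0.128) and rho = -0.321 (permutation p = 0.244). These p-values treat the 15 samples as independent.

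Depth, taken here as the geometric mean of a sample's 100 highest miRNA counts, moved with these levels. The same quantity is the divisor of the normalized counts. It lay between 505 and 1579 in 8 tissue samples (CT1 to CT4, FT1, FT5, M2 and M6) and between 237 and 303 in the other 7 (CT5, FT2 to FT4, M1, M3 and M4). Normalized counts of miR-23a were 1807 to 3566 in the former and 375 to 1640 in the latter, and those 2 ranges did not overlap, which held for 8.83% of the 566 miRNAs and for no other member. miR-23b was at 334 to 909 against 63.8 to 390, miR-24 at 61.4 to 248 against 20.3 to 146, miR-27a at 813 to 2203 against 279 to 2572 and miR-27b at 37.8 to 136 against 44.3 to 299.7. Of the samples of lower depth 1 was a CT, 3 were FT and 3 were M. The total count on miRNAs was not as low in all of them, with 175531 in FT2 and 215577 in FT4 beside 135384 in CT1. In CT5 and M4 only 94 and 97 miRNAs were above background, so their 100 highest included some that were not.

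Within these sets the relations were computed again, as 20 exact permutation tests. miR-23a and miR-23b had r = 0.784 (exact permutation p = 0.0387, adjusted p = 0.194) and rho = 0.786 (exact permutation p = 0.0480) in the 7 samples of lower depth. In the 8 of higher depth they had r = 0.332 (exact permutation p = 0.442, adjusted p = 0.680) and rho = 0.238 (exact permutation p = 0.582). Both were below the r of 0.894 over all tissue, and no pair of members had an adjusted p under 0.05 within either set. Each set held a narrower range of miR-23a than all tissue, and r can fall for that alone. With 7 and 8 samples and 20 tests, these values cannot tell whether the relation holds at one depth. miR-23b and miR-24 had r = 0.662 (exact permutation p = 0.107, adjusted p = 0.357) and rho = 0.607 (exact permutation p = 0.167) at lower depth, and r = 0.661 (exact permutation p = 0.0719, adjusted p = 0.288) and rho = 0.619 (exact permutation p = 0.115) at higher depth. Among samples of higher depth, FT1 and FT5 had 3102 and 2873 normalized counts of miR-23a, inside the range of 1807 to 3341 of CT1 to CT4. The 4 housekeeping mRNA probes had the highest normalized level of all tissue samples in M4 (13889) and FT2 (11795), beside 416 to 1393 in CT. M4 and FT2 were the samples lowest in miR-23a. Levels of these probes were also above CT in FT1 (4145), M6 (4033) and M2 (2066), which had 3102, 3566 and 2983 of miR-23a. They were above CT as well in M1 (4728), M3 (3724) and FT4 (3508), which had 805, 1277 and 638. FT5 was within the range of CT (538) and had 2873. FT3 had the lowest level of the probes (229) with 924 of miR-23a. The part of depth and of carried-over mRNA in the levels was not tested.

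**Figure D4:**
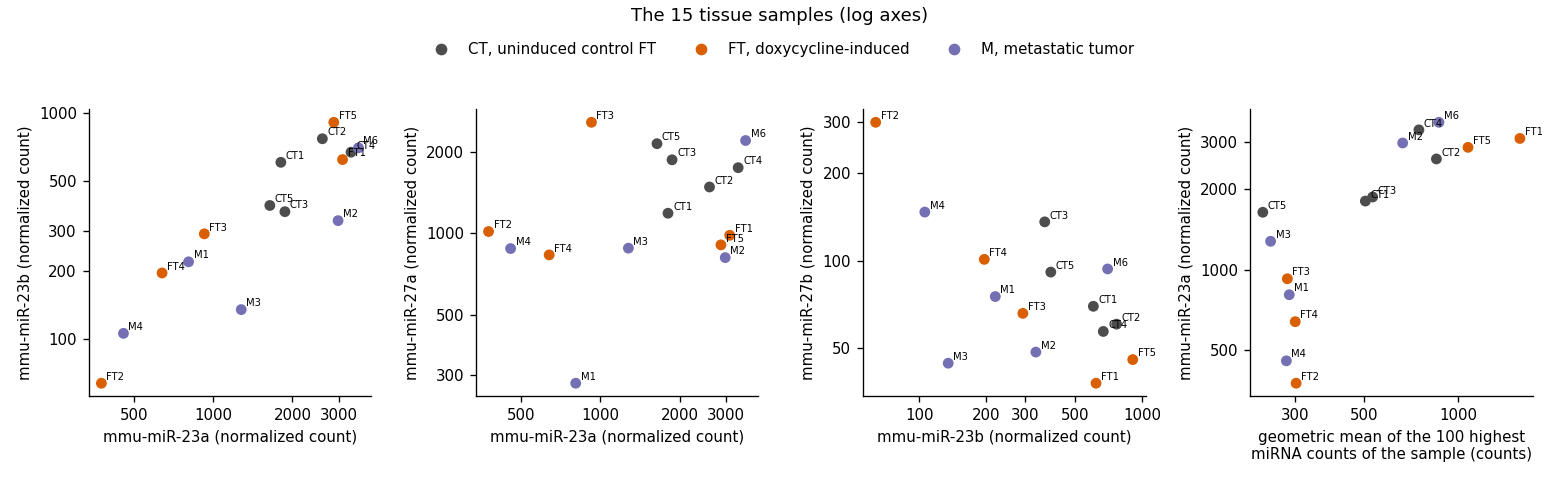
The 15 tissue samples, one point each and coloured by group, for mmu-miR-23b against mmu-miR-23a, mmu-miR-27a against mmu-miR-23a, mmu-miR-27b against mmu-miR-23b, and mmu-miR-23a against the geometric mean of the 100 highest miRNA counts (log axes). miR-23a and miR-23b lie along one line (r = 0.894), miR-23a and miR-27a do not (r = 0.339), and the 7 samples with a geometric mean up to 303 have the lowest miR-23a.

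Each member's closest companions in tissue, by r over the 15 samples among 141 miRNAs, were taken as a description. For miR-23a they were mmu-miR-151-5p (r = 0.965), mmu-miR-15b (0.910) and mmu-miR-342-3p (0.892). For miR-23b they were mmu-miR-125a-5p (0.886), mmu-miR-342-3p (0.818) and mmu-miR-151-5p (0.811), so the miR-23 paralogues shared a pair of companions. miR-24 was closest to mmu-miR-15b (0.815), mmu-miR-30c (0.775) and mmu-miR-425 (0.759), the study's reference miRNA. miR-27a was closest to mmu-miR-29b (0.774) and mmu-miR-29a (0.769), which share a seed, and to mmu-miR-96 (0.696). miR-27b was closest to mmu-miR-672 (0.715), mmu-miR-1966 (0.711) and mmu-miR-196b (0.662), none of them a companion of another member.

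The clusters are known for their part in blood vessels, and 10 vascular miRNAs (mmu-miR-126-3p, mmu-miR-126-5p, mmu-miR-221, mmu-miR-222, mmu-miR-130a, mmu-miR-132, mmu-miR-210, mmu-miR-218, mmu-miR-296-5p and mmu-miR-378) were set beside them. Of these, 4 passed the test upwards in M against CT and 0 downwards, where 49 of all 566 miRNAs passed upwards and 16.8% in either direction. The list was made with earlier results of these data known and is given as values only. Their median log2 fold change was 0.80, beside 0.02 over all miRNAs and -0.34 over the 5 members. The 4 were mmu-miR-210, a miRNA induced by hypoxia (3.38 ± 0.47, SE, adjusted p = 0.000129), mmu-miR-132 (3.17 ± 0.61, SE, adjusted p = 0.00226), mmu-miR-378 (1.93 ± 0.44, SE, adjusted p = 0.00667) and the endothelial mmu-miR-126-3p (1.36 ± 0.42, SE, adjusted p = 0.0354). Normalized counts of mmu-miR-126-3p were 4033 to 6813 in CT and 7614 to 17056 in M. Its other arm, mmu-miR-126-5p, did not rise with it. The median log2 fold change of both arms was 0.14, and 1 of 2 passed. In FT against CT and in M against FT, 0 of the 10 passed in either direction, with medians of 0.27 and 0.28 beside -0.02 and -0.03 over all miRNAs.

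In plasma, mmu-miR-23a had normalized counts of 445, 335 and 354 in CS2 to CS4 and of 594, 1388, 1296 and 329 in TS1 to TS4, all above background. TS1, TS2 and TS3 lay above every control and TS4 below. mmu-miR-27a was at 194, 152 and 254 in CS and at 246, 532, 475 and 331 in TS, with CS3 not above background, and all 4 TS lay above the control mean though TS1 was below CS4. CS3 held only 53 counts of miR-23a and 24 of miR-27a, and CS4 held 705 and 505.

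mmu-miR-23b was at 153, 139 and 212 in CS and at 95.7, 196, 59.5 and 214 in TS, with CS2 and CS3 not above background. mmu-miR-24 was at 54.3, 50.5 and 47.2 in CS and at 29.6, 65.9, 229 and 26.7 in TS, with CS2, CS3 and TS1 not above background. TS3 alone was high in miR-24 (181 counts) and it was the lowest in miR-23b. mmu-miR-27b had 3 to 63 counts in plasma and was above background in CS4 and TS4 only, so a difference in its level was not detectable at this depth.

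In TS against CS 0 of 566 miRNAs passed edgeR's threshold (0%), though 131 had an unadjusted p under 0.05, with 0 members among them, and groups did not overlap for 15.9% of all miRNAs and for no member. DESeq2 called 0 as well, and without CS4 edgeR called 173 miRNAs, with 0 members among them. The log2 fold change of TS over CS was 1.25 ± 0.72 (SE, adjusted p = 0.242) for miR-23a, 0.98 ± 0.69 (SE, adjusted p = 0.321) for miR-27a and 0.79 ± 0.76 (SE, adjusted p = 0.451) for miR-24. It was -0.25 ± 0.67 (SE, adjusted p = 0.795) for miR-23b and -0.16 ± 0.71 (SE, adjusted p = 0.879) for miR-27b. The median over all miRNAs was -1.10, and relative to it miR-23a was at 2.36 and miR-27a at 2.08. With TMM normalization the median of all miRNAs was -0.05, so the shift depended on the scaling. With TMM miR-23a was at 2.03 (edgeR adjusted p = 0.472) and miR-27a at 1.72 (adjusted p = 0.544), and with miR-425 scaling they were at 1.79 and 1.70 (adjusted p = 0.672). miR-425 itself was not above background in CS2 and CS3, with 27 and 18 counts. CS2 and CS3 had geometric means of 351 and 189 counts over their 30 highest miRNAs, CS4 had 2372 and TS had 846 to 2231. The differences in mean log2 normalized count were 1.04 for miR-23a and 0.96 for miR-27a. Their exact permutation tests, two-sided over 35 splits with a smallest p of 0.0286, gave p = 0.200 and p = 0.0857. Without TS3 miR-24 was at -0.31.

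The difference between plasma and tube, (TS minus CS) minus (FT minus CT) in one edgeR fit, was 1.76 ± 0.97 (SE, adjusted p = 0.356) on the log2 scale for miR-23a and 1.40 ± 0.83 (SE, adjusted p = 0.380) for miR-27a. In the same edgeR fit miR-24 was at 1.04, miR-23b at 0.17 and miR-27b at -0.57 (adjusted p of 0.479 or more). How many of all miRNAs passed in that fit was not counted. That fit takes tissue and plasma of one mouse as independent, so the difference was also taken within mice. For miR-23a, the log2 normalized count in plasma minus that in the tube was 0.66, 0.59, 1.02 and -3.12 in the mice of FT2 to FT5 and -2.55, -2.48 and -3.24 in those of CT2 to CT4. The mouse of FT5 thus lay among the controls and the other 3 induced mice above them, and the mean difference was 2.54 (exact permutation over 35 splits, p = 0.114, adjusted over all miRNAs p = 0.265). For miR-27a it was -2.04, -2.27, -0.81 and -1.45 in induced mice and -2.94, -3.62 and -2.78 in controls. Here the groups did not overlap, as for 25.6% of all 566 miRNAs, and the mean difference was 1.47 (exact permutation p = 0.0286, the smallest that 35 splits can give, adjusted over all miRNAs p = 0.184). With each sample scaled to its total miRNA count the groups overlapped for miR-27a, at a mean difference of 1.57. Scaled to miR-425 they did not overlap for miR-27a (1.66) or miR-23a (2.73). How many of all miRNAs did so was not counted, and miR-425 was not above background in FT2, CS2 and CS3. In the main scaling the median difference over all miRNAs was -1.41. The other 3 members had mean differences of -0.62 for miR-27b, 0.58 for miR-24 and 0.85 for miR-23b (exact permutation p of 0.371 or more). As absolute levels in plasma and tissue are on separate scales, only these differences between mice can be read.

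In the mice with both samples, miR-23a ranked 49, 37, 38 and 18 among 566 miRNAs in FT2 to FT5 and 18, 8, 12 and 29 in the plasma of the same mice, TS1 to TS4. In the controls it ranked 21, 27 and 17 in CT2 to CT4 and 26, 30 and 32 in CS2 to CS4. It thus ranked nearer the top in plasma than in the tube in 3 of 4 induced mice, and farther from it in all 3 controls and in the mouse of FT5, a description of 7 mice that was not tested. mmu-miR-451 is an erythrocyte miRNA whose ratio to miR-23a is a common index of haemolysis. Its log2 ratio to miR-23a was 6.13, 5.92 and 5.20 in CS2 to CS4 and 6.33, 2.99, 2.38 and 3.96 in TS1 to TS4. miR-23a is the denominator of this index, so a low index can stem from either miRNA. Normalized counts of mmu-miR-451 itself were 31109, 20255 and 13039 in CS2 to CS4 and 47736, 11024, 6732 and 5118 in TS1 to TS4, lower in 3 of 4 TS than in any CS. The part of blood cells in these plasma values was not tested.

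The ratio of miR-27a to miR-27b was 9.50, 8.0 and 8.02 in CS2 to CS4 and 29.2, 11.4 and 16.3 in TS1, TS3 and TS4, and TS2 had 629 counts of miR-27a and 21 of miR-27b, a difference of 1.24 in mean log2 ratio (exact permutation p = 0.0571, adjusted p = 0.417). miR-27b was not above background in 5 of these 7 samples, so the order of the ratios is not settled. After subtraction of the negative controls the log2 ratio was 5.31 in CS2, above 4.23 in TS3 and 4.55 in TS4, and the groups overlapped. The ratio of miR-23a to miR-23b was 2.91, 2.41 and 1.67 in CS and 6.21, 7.08, 21.8 and 1.54 in TS, a difference of 1.45 (exact permutation p = 0.229, adjusted p = 0.457) in which TS4 lay below all CS and TS3 far above. Plasma minus tissue of the same 7 mice gave 0.01 ± 1.51 (SD) for miR-23a to miR-23b, higher in plasma in 3 of 7 (exact permutation p = 1.0, adjusted p = 1.0), and -0.17 ± 1.64 (SD) for miR-27a to miR-27b, higher in 2 of 7 (exact permutation p = 0.812, adjusted p = 0.979). Over the 7 plasma samples miR-23a followed miR-27a with r = 0.802 (exact permutation p = 0.0345, adjusted over 10 pairs p = 0.309) and rho = 0.536 (exact permutation p = 0.236), a relation that rested on TS2 and TS3, without which r was 0.001, and it had r = -0.487 with miR-23b (exact permutation p = 0.255, adjusted p = 0.510) and rho = -0.500 (exact permutation p = 0.267). In TS against CS, 0 of the 10 vascular miRNAs passed, where 0 of all 566 did, with a median of 0.37 beside -1.10 over all miRNAs.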

How the data were processed

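The authors deposited NanoString nCounter mouse miRNA V1.5 barcode counts, whole numbers from 1 up and not normalized, for 626 probes, of which 566 are mouse miRNAs. The authors excluded M5 and CS1, which were not analysed here, and 0 columns were unmatched. Whether a correction to positive controls was made before deposit is not given in the sources used here.

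Counts were tested with edgeR 4.0.16 (R 4.3.3), quasi-likelihood, each pair of groups alone, with the geometric mean of each sample's own 100 (tissue) or 30 (plasma) highest miRNAs as library size, all 566 miRNAs and Benjamini-Hochberg adjustment at 0.05. The script was tested on simulated data with large changes, which checks the code and not its power here. Single members and ratios were tested with exact permutation tests, correlations with 100000 permutations (all 5040 orders for 7 plasma samples), in Python 3.11.15 with scipy 1.17.1. Intervals cover 95%. Alternatives were TMM, miR-425 and fixed-set scaling, DESeq2 1.42.0, limma 3.58.1, the methods' t-test, a minimum mean count of 20, subtraction of negative controls, a joint fit of CT, FT and M, the sample number as a block, and each sample left out. Division of the tissue samples by depth, subtraction before the correlations and the differences within mice were chosen after seeing the data.

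Named miRNAs are the members, their 3 closest companions, miR-451, miR-425 and marker and vascular lists from general knowledge. Members and lists were chosen with earlier results of these data known. The labels do not say that samples of a group are from separate mice, so p-values measure the spread between these samples. Precision is limited by low counts. The paired samples of tissue and plasma come from the study's list of genotypes. The mice carried further engineered alleles, which are not reported here.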

Additional observations from a re-analysis of the deposited data

Results flagged for a closer look

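A pair of values stood far from the other 4 samples of their group, out of 28 groups of values examined, where chance alone gives about 1 in 20. mmu-miR-24 in CT3 was at 61.4 normalized counts, and the other 4 CT at 123 to 159. mmu-miR-27a in FT3 was at 2572 normalized counts, and the other 4 FT at 832 to 1015. No member's difference in effect between plasma and tube passed the threshold, and how many of all miRNAs did was not counted.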

How the results depend on the processing

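In 80 alternative fits (each setting and each sample left out), 0 of 5 members passed the threshold, as in the fits reported. The lowest adjusted p of any member was 0.445 in FT against CT, 0.0542 in M against CT, 0.706 in M against FT and 0.209 in TS against CS. Of the recomputed log2 fold changes 361 kept their sign and 39 did not, and of the recomputed ratio differences 93 kept it and 15 did not. None of these values was past the threshold, and the cause was not tested. Taken within mice, the 5 differences between plasma and tube kept their sign and 0 passed after adjustment over all miRNAs.

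TMM turned miR-24 in FT against CT to 0.08, miR-23a, miR-27b and miR-24 in M against CT to 0.02, 0.10 and 0.06, miR-23a in M against FT to -0.14, and miR-23b and miR-27b in TS against CS to 0.72 and 0.43. Scaling to miR-425 turned miR-27a and miR-24 in FT against CT to 0.10 and 0.13, miR-23a, miR-27b and miR-24 in M against CT to 0.12, 0.59 and 0.14, and miR-23b and miR-27b in TS against CS to 0.70 and 0.56. miR-425 was not above background in FT2, M1, M4, CS2 and CS3, which limits that scaling. One fixed set of miRNAs turned miR-27b to 0.28 in M against CT and to 0.28 in TS against CS. Subtraction of the negative controls turned miR-27b in TS against CS to 0.08, the miR-23a to miR-23b difference of FT against CT to 0.09 and the miR-27a to miR-27b difference of plasma against tissue to 0.64. With 10 added to both counts the miR-23a to miR-23b difference of plasma against tissue was -0.05.

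With samples left out one at a time, miR-27b lay between -0.42 and 0.66 in FT against CT, between -0.33 and 0.24 in M against CT, between -0.74 and 0.40 in M against FT and between -0.65 and 0.15 in TS against CS. In M against FT, miR-23a lay between -0.20 and 0.60, miR-27a between -0.82 and 0.11, miR-23b between -1.07 and 0.03 and miR-24 between -0.81 and 0.26. In TS against CS, miR-23b lay between -0.53 and 0.00 and miR-24 between -0.31 and 1.10. The ratio differences lay between -0.18 and 0.05 for miR-23a to miR-23b in FT against CT, between -0.85 and 0.06 for miR-27a to miR-27b in M against FT, and in plasma against tissue between -0.45 and 0.27 for miR-23a to miR-23b and between -0.71 and 0.13 for miR-27a to miR-27b.

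Numbers in the labels do not pair the samples: deviations of same-numbered samples correlated between -0.375 and 0.322. With the replicate block 0 members passed in every comparison, miR-27b in FT against CT was -0.01, and the count over all miRNAs went from 1 to 0 in FT against CT, from 11 to 1 in M against FT and from 0 to 226 in TS against CS. Counts over all miRNAs moved by over 1.5 times elsewhere too. In M against CT (95) they were 151 with TMM, 150 with DESeq2, 158 after subtraction, 45 with the methods' t-test, 62 with CT, FT and M together, 60 without CT2 and 63 without CT3. In FT against CT (1) they ran from 0 to 9, the highest without FT5, and in M against FT (11) from 0 to 35, the highest with DESeq2. In TS against CS the count was 173 without CS4 and 0 in all other fits but the block. The median over all miRNAs moved to 0.64 in FT against CT and 0.66 in M against CT with miR-425 scaling. After subtraction of the negative controls the correlation in tissue was 0.898 for miR-23a with miR-23b and -0.567 for miR-23b with miR-27b. Low counts limit miR-27b and miR-24 in tissue and all members but miR-23a in CS2 and CS3.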
